A study of Mus musculus with 3 samples.

Results

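The genes described here encode carriers of 7 solute carrier families that move amino acids across membranes, namely SLC1, SLC3, SLC6, SLC7, SLC36, SLC38 and SLC43. Members were taken by symbol alone, as any numbered gene of these families other than Slc7a11. No measured value is part of this rule, although the rule was set with earlier results of these data known. Of 60 such genes in the RefSeq gene table, 58 had a probe on the arrays and Slc6a5 and Slc6a16 had none matched, out of 21150 named genes in all. The families also hold carriers of taurine, creatine, GABA and monoamines, which are kept and named as such. RNA came from acinar-to-ductal metaplasia (ADM) cells, duct cells and acinar cells of the mouse pancreas, each cut by laser microdissection from frozen tissue 48 h after caerulein pancreatitis. All groups share this treatment and the wild-type genotype, and the study used 3 mice. The sources used here do not give strain, sex or age, or say whether an array holds 1 mouse or a pool. With 1 array per group, no difference has a replicate check and no test between groups was possible, so the number of arrays sets the limit of precision.

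Amino acid carriers set which amino acids a cell can take up, exchange or release. The SLC7 light chains reach the cell surface only when paired with an SLC3 heavy chain, and most of them exchange an internal amino acid for an external one. SLC38, SLC6 and SLC1 carriers use the sodium gradient to concentrate amino acids, SLC36 carriers use protons, and SLC43 carriers work by facilitated diffusion. Acinar cells of the pancreas make and secrete digestive enzymes at a very high rate, and depend on a matching supply of amino acids. Caerulein is a cholecystokinin analogue that overstimulates these cells, and in ADM they give up part of their secretory program and take on features of ducts.

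The level of a gene is the log2 signal of its brightest probe minus the 75th percentile of that array, so 0 is the 75th percentile. Levels of different genes come from different probes and are not compared with each other. Repeated spots of probes well above background had a median SD of 0.11 log2 units on the ADM array, 0.0896 on duct and 0.122 on acinar, which covers spotting and scanning only. A second probe of the same gene is a harder check. Over all genes, where the first probe differed by 2-fold or more, a second one pointed the same way in 62.0% of genes for ADM against acinar, 66.1% for ADM against duct and 62.1% for duct against acinar. Among the transporter genes it did so in 2 of 3, 3 of 4 and 2 of 3. The 75th-percentile signal was 72.2 intensity units for ADM, 95.7 for duct and 35.2 for acinar, so the acinar array was the dimmest, and no spot was saturated. A gene is "well above background" where the scanner software says so. Where 1 of 2 arrays was not, the difference is a lower limit of the size, written "at least".

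The labelled cell types were set against their markers. All 12 acinar markers were at least 2-fold lower in ADM and in duct than in acinar (medians -2.33 and -5.72), and 11 of 12 were higher in ADM than in duct (3.28). Cpa1, a carboxypeptidase, stood at 10.01 on ADM, 7.05 on duct and 11.90 on acinar, so acinar transcripts were present on all arrays. Of 11 duct markers compared, 10 were higher in duct than in acinar (2.73), 7 were higher and 1 lower in ADM than in acinar (1.79), and 2 were higher and 7 lower in ADM than in duct (-1.43). Cftr, the chloride channel of duct cells, was not well above background on any array.

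Markers of other cell types moved with the groups too. The summed linear level of 12 macrophage markers was 326 on ADM, 76.1 on duct and 82.9 on acinar, with 10 higher in ADM than in acinar (median 2.47), 10 higher and 1 lower in ADM than in duct (2.40), and 2 higher and 6 lower in duct than in acinar (-0.40). The 11 fibroblast and stellate cell markers summed to 330 on ADM, 321 on duct and 79.3 on acinar, with 9 of 10 higher in ADM than in acinar (2.57), 1 of 11 higher and 2 lower in ADM than in duct (0.05), and 9 of 11 higher and 1 lower in duct than in acinar (1.71). The 8 endothelial markers summed to 18.8 on ADM, 37.0 on duct and 16.3 on acinar, with 5 of 7 higher and 1 lower in ADM than in acinar (median 1.47), 1 of 7 higher and 5 lower in ADM than in duct (-1.73), and 5 of 6 higher and 1 lower in duct than in acinar (3.38). Tek was not well above background on any array. The 9 islet markers summed to 1180 on ADM, 664 on duct and 750 on acinar, with 5 of 9 higher and 0 lower in ADM than in acinar (1.21), 3 of 9 higher and 1 lower in ADM than in duct (0.89), and 3 of 9 higher and 1 lower in duct than in acinar (0.10). The 8 T and B cell markers summed to 5.73 on ADM, 3.43 on duct and 7.09 on acinar, with 2 of 6 higher and 1 lower in ADM than in acinar (0.20), 4 of 6 higher and 0 lower in ADM than in duct (1.43), and 0 of 2 higher and 1 lower in duct than in acinar (-1.09). Ms4a1 was not well above background on any array. The 6 neutrophil markers summed to 166 on ADM, 149 on duct and 219 on acinar, nearly all of it from Csf3r, with 1 of 4 higher in ADM than in acinar (0.00), 2 of 4 higher in ADM than in duct (0.85) and 0 of 1 apart in duct against acinar (-0.55). Mpo and Cxcr2 were not well above background on any array. The part of these cells in the transporter values was not tested. In dissected tissue, fewer cells of a type and less RNA per cell cannot be told apart.

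Of the 58 genes, 41 were well above background on at least 1 array, 35 on ADM, 33 on duct and 32 on acinar. On all 3 arrays 26 genes were, on a pair of arrays 7, on a single array 8 and on none 17. The 17 were the glutamate carriers Slc1a1 and Slc1a2, the SLC6 genes Slc6a3, Slc6a4, Slc6a7, Slc6a11, Slc6a12, Slc6a14, Slc6a15, Slc6a19 and Slc6a21, the SLC7 genes Slc7a12, Slc7a13 and Slc7a14, and Slc36a3, Slc38a11 and Slc43a1. Slc43a1 (LAT3), a carrier of branched-chain amino acids, thus has no measured level here, and neither has Slc1a1, the glutamate carrier EAAT3 of many epithelia.

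**Figure D1:**
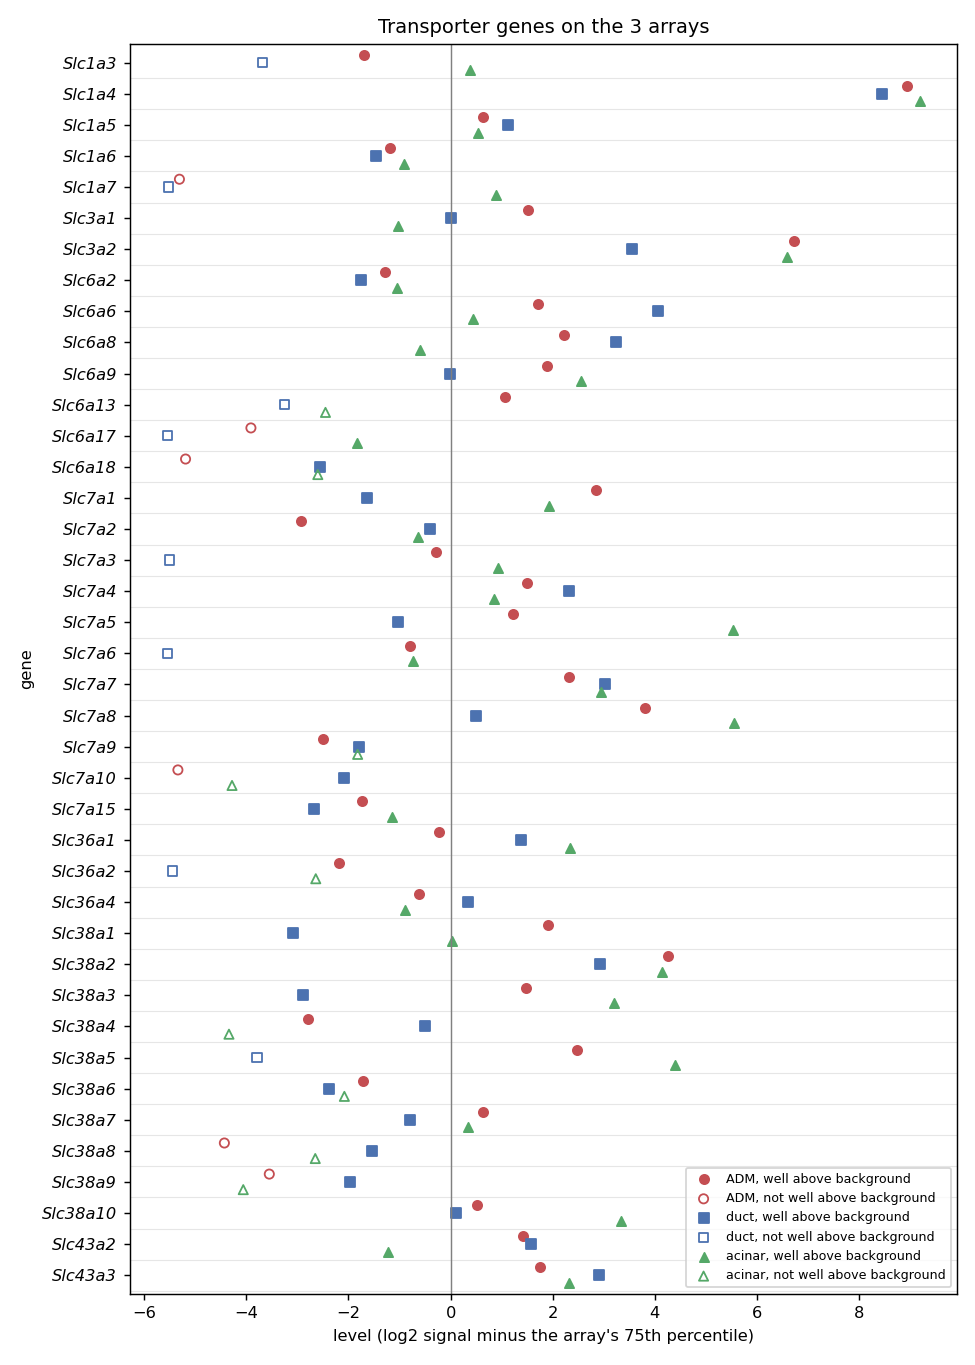
Level of 40 of the 41 transporter genes well above background on at least 1 array (x axis, log2 signal minus the array's 75th percentile; 1 array per group, no error bars). Filled symbols were well above background and open symbols were not; Slc3a2 stood at 6.72 on ADM, 3.56 on duct and 6.59 on acinar.

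Over the whole group, transporters at least 2-fold lower in duct than in acinar outnumbered those higher. Of 39 transporter genes compared between duct and acinar, 17 (43.6%) were at least 2-fold lower in duct, against a background of 24.6% of all 13826 compared genes. In the other direction, 7 (17.9%) were higher in duct, against 27.4%. The median difference was -0.72 for the transporter genes and 0.00 for all compared genes. Among the 26 transporter genes well above background on all 3 arrays, for which no dim side enters, 11 (42.3%) were lower in duct, against 25.2% of 9539 genes. Scaling by the median adds 0.39 to every difference between duct and acinar. Under it 15 transporter genes were lower and 7 higher, while the share of duct-high genes among all 2-fold calls was 64.7%, against 52.7% as reported. Of the 24 transporter genes past 2-fold, 17 stayed past it under the other background correction and both other scalings, and Slc3a1, Slc6a17, Slc7a15, Slc36a4, Slc38a2, Slc38a4 and Slc38a7 did not. Sizes were less stable than directions, since with normexp background correction the difference between duct and acinar was -4.30 for Slc38a5 (-7.67 or lower as reported), -4.47 for Slc7a5 (-6.56) and -3.07 for Slc38a3 (-6.09). The normexp setting also adds an offset of 50 intensity units, above the acinar 75th-percentile signal of 35.2. The offset draws differences of dim genes towards 0 by construction, and its part in the losses past 2-fold was not tested. Folds and limits given below hold for the reported setting only.

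More of these transporters were higher than lower in ADM against duct. Of 39 genes compared, 16 (41.0%) had an ADM level 2-fold or more above duct, against a background of 21.6% of 14475 genes, and 9 (23.1%) were lower, against 24.8%. The median was 0.48 for the transporter genes and -0.05 for all genes. Among the 26 genes measured on all arrays, 10 (38.5%) were higher in ADM, against 18%. Of the 25 genes past 2-fold, 15 stayed past it under the other background correction and both other scalings, and 10 did not. The 10 were Slc1a3, Slc6a8, Slc7a2, Slc7a10, Slc36a2, Slc38a2, Slc38a4, Slc38a7, Slc38a8 and Slc38a9.

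Set against acinar, ADM had more transporters lower than higher, with shares nearer the background. Of 37 genes, 11 (29.7%) were at least 2-fold lower in ADM, against 22.0% of 13632 genes, and 6 (16.2%) were higher, against 21.8%. The medians were -0.06 and 0.00. With normexp background correction 7 genes (18.9%) were lower and 7 higher, against 6.92% and 12.5% of all genes. Of the 17 past 2-fold, 13 held under the other background correction and both other scalings, and Slc1a3, Slc6a17, Slc7a2 and Slc7a3 did not.

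**Figure D2:**
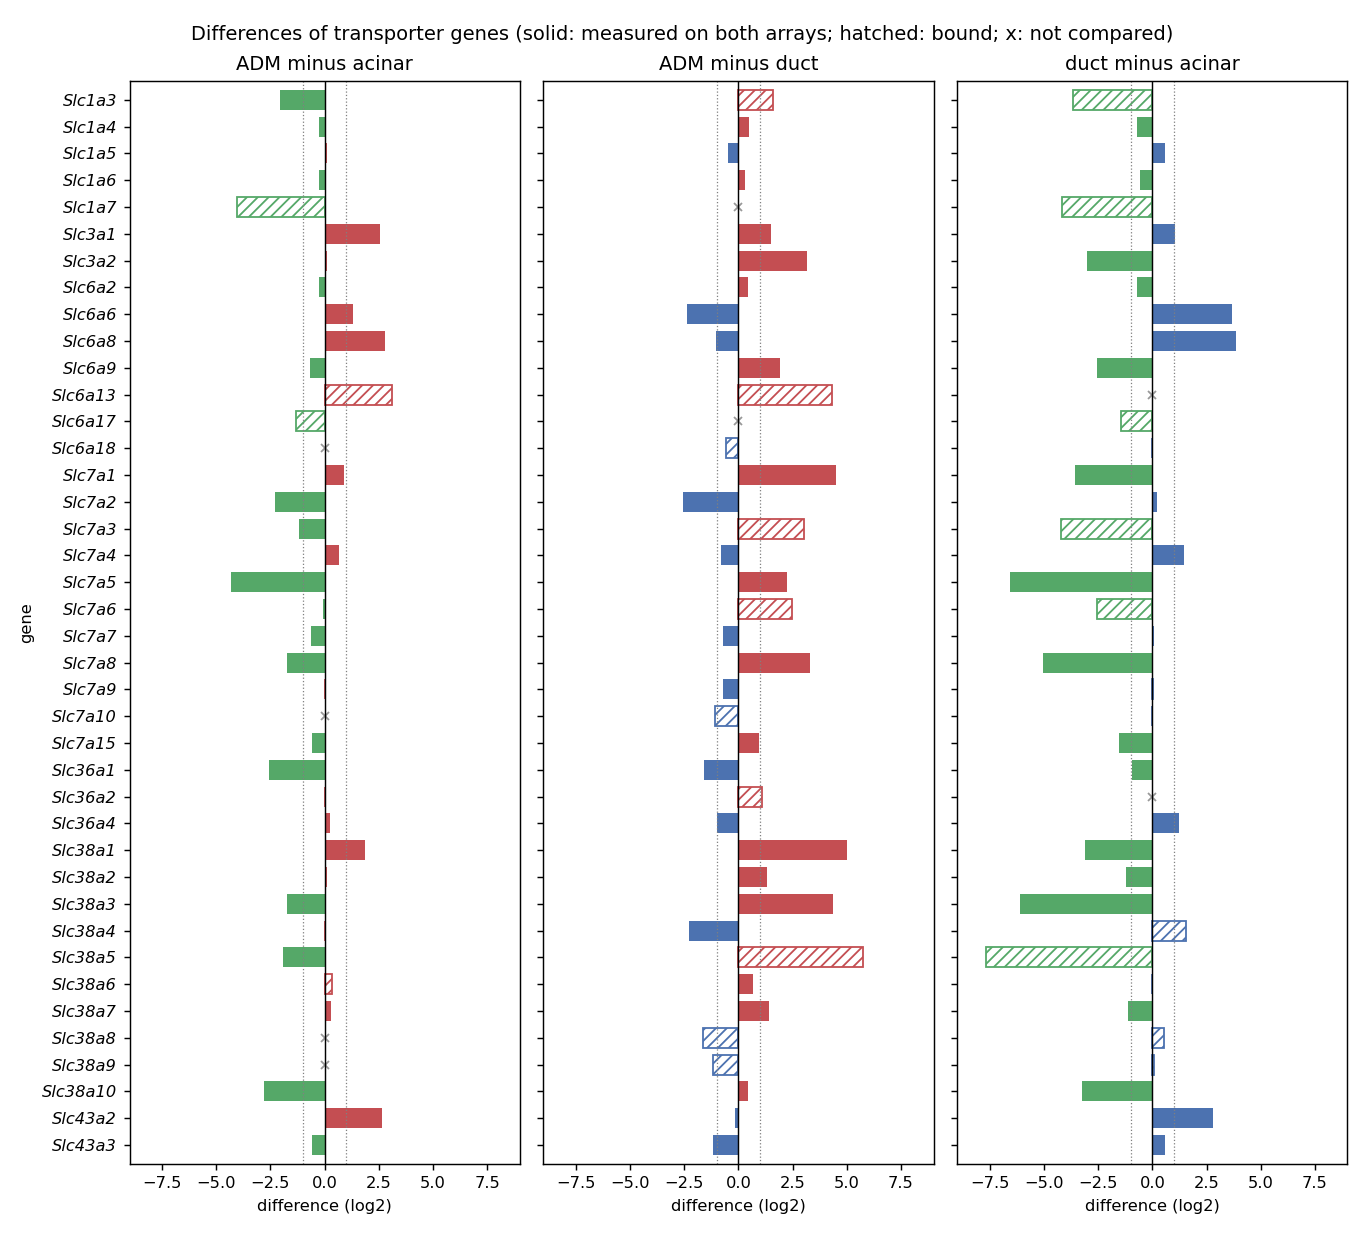
Differences of 40 of the 41 transporter genes (x axis, log2; first array minus second) for ADM against acinar, ADM against duct and duct against acinar; the bar takes the colour of the array with the higher level, and dotted lines mark 2-fold. Hatched bars are limits set by a dim side; 17 bars in the last panel reach 2-fold to the left and 7 to the right.

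The heavy chain gene Slc3a2 and its partners Slc7a5, Slc7a6 and Slc7a8 were lower in duct than in acinar, whereas its partners Slc7a7 and Slc7a10 were not. Of the 9 light chain genes of SLC7, 7 could be compared between duct and acinar. At 2-fold or more, 4 were lower in duct and 0 higher, against 24.6% and 27.4% of all compared genes. Slc7a15, among these 4, was under 2-fold with normexp background correction (-0.61). Slc3a2 encodes 4F2hc (CD98), the heavy chain that carries several light chains to the surface. Its level was 6.72 on ADM, 3.56 on duct and 6.59 on acinar. ADM and acinar differed by 0.13, while duct was 8.14-fold below acinar and ADM 8.92-fold above duct.

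Slc7a5, the light chain LAT1 for large neutral amino acids, had levels of 1.22 on ADM, -1.02 on duct and 5.54 on acinar. It was 20.0-fold lower in ADM than in acinar, 4.71-fold higher in ADM than in duct, and 94.5-fold lower in duct than in acinar. Unlike its heavy chain, Slc7a5 was therefore well below the acinar level in ADM. The second Slc7a5 probe kept these directions with other sizes. It read 1.90 on ADM, not well above background on duct and 3.37 on acinar, a difference of -1.47 for ADM against acinar, at least 5.18 for ADM against duct and -6.64 or lower for duct against acinar.

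Slc7a8, the light chain LAT2, followed the same order. Its levels were 3.81 on ADM, 0.50 on duct and 5.56 on acinar, so that ADM was 3.37-fold below acinar and 9.91-fold above duct, and duct was 33.4-fold below acinar. Slc7a6, which exchanges cationic for neutral amino acids, read -0.79 on ADM and -0.73 on acinar and was not well above background on duct. ADM was at least 5.61-fold above duct, and duct at least 5.85-fold below acinar. Slc7a7, a relative with the same kind of exchange, did not share the pattern, with 2.32 on ADM, 3.03 on duct and 2.94 on acinar. All 3 of its differences were under 2-fold.

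The other heavy chain, Slc3a1 (rBAT), pairs with Slc7a9 in the uptake of cystine and cationic amino acids. Slc3a1 ran the opposite way to Slc3a2 between duct and acinar only, with levels of 1.52 on ADM, 0.01 on duct and -1.02 on acinar. ADM was 5.81-fold above acinar and 2.85-fold above duct. Duct was 2.04-fold above acinar, a difference of 1.03 that lay close to the 2-fold line and was 0.23 with normexp background correction. Slc7a9 was dim, at -2.50 on ADM and -1.79 on duct and not well above background on acinar. ADM and duct differed by -0.71, and against acinar only limits near 0 could be set. Slc7a15, a rodent light chain, read -1.74 on ADM, -2.67 on duct and -1.15 on acinar, 2.87-fold lower in duct than in acinar. Its other probes were not well above background on any array. Slc7a10, a partner of Slc3a2 that carries small neutral amino acids, was well above background on duct only (-2.08), with ADM at least 2.09-fold below duct.

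Cationic amino acid carriers of SLC7 need no heavy chain and bring in arginine and lysine. Slc7a1, the widely expressed member, had levels of 2.84 on ADM, -1.64 on duct and 1.92 on acinar. It was 22.2-fold higher in ADM than in duct and 11.8-fold lower in duct than in acinar, and ADM and acinar lay within 2-fold. Slc7a3 read -0.28 on ADM and 0.92 on acinar and was not well above background on duct, where it was at least 18.4-fold below acinar. ADM was 2.30-fold below acinar for this gene and at least 7.99-fold above duct. Slc7a2 differed from both, since ADM was the low array: -2.93 on ADM, -0.40 on duct and -0.63 on acinar. ADM was 4.95-fold below acinar and 5.80-fold below duct, although the ADM signal was only 9.45 intensity units. Slc7a4, whose transport function is less clear, was 2.75-fold higher in duct (2.31) than in acinar (0.85), with ADM at 1.5. The other Slc7a4 probe was not well above background on any array.

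System N carriers move glutamine, asparagine and histidine with sodium and in exchange for protons, and both members were far lower in duct. Slc38a5 had a level of 2.48 on ADM, was not well above background on duct, and reached 4.39 on acinar. It was at least 203-fold lower in duct than in acinar, a difference of -7.67 or lower that was -4.30 with normexp background correction, and ADM was at least 54.2-fold above duct and 3.75-fold below acinar. Slc38a3 read 1.48 on ADM, -2.89 on duct and 3.20 on acinar. Duct was 68.2-fold below acinar, ADM 20.8-fold above duct and ADM 3.29-fold below acinar, so that the pair held the same order on the arrays.

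System A carriers take up alanine, glutamine and other small neutral amino acids with sodium. Slc38a1 was highest in ADM, with 1.91 there, -3.08 on duct and 0.03 on acinar. ADM was 3.69-fold above acinar and 31.8-fold above duct, and duct was 8.62-fold below acinar. Its other probes were well above background on ADM only, at 0.34 and -1.98. Slc38a2, the member known to be induced when amino acids run short, was 4.25 on ADM, 2.92 on duct and 4.15 on acinar, which put duct 2.34-fold below acinar and ADM 2.5-fold above duct. The difference between duct and acinar was -0.52 with normexp background correction and -0.84 with median scaling, both under 2-fold. Slc38a4 behaved otherwise, being 4.90-fold lower in ADM (-2.80) than in duct (-0.51) and not well above background on acinar, which put duct at least 2.90-fold above acinar.

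Among the remaining SLC38 genes, Slc38a10 was the one with a large difference. Its level was 0.52 on ADM, 0.10 on duct and 3.34 on acinar, so ADM and duct were 7.02-fold and 9.45-fold below acinar. Slc38a7, a lysosomal glutamine carrier, was 2.70-fold higher in ADM (0.64) than in duct (-0.80) and 2.22-fold lower in duct than in acinar (0.35). Slc38a9, the lysosomal arginine sensor of the mTORC1 pathway, and Slc38a8 were well above background on duct only, at -1.96 and -1.53, with ADM at least 2.27-fold and 3.07-fold below duct. With normexp background correction these differences were -0.19 and -0.28. The other Slc38a9 probes were not well above background on any array. Slc38a6 was dim, with -1.71 on ADM, -2.39 on duct and no reading well above background on acinar.

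**Figure D3:**
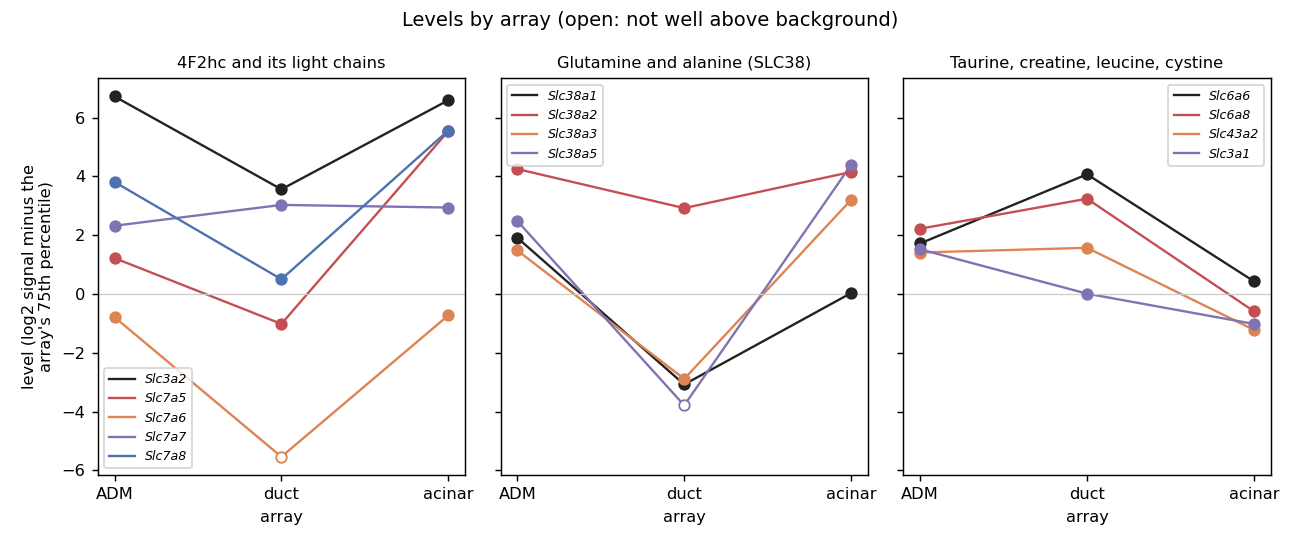
Levels of 13 transporter genes on the ADM, duct and acinar arrays (y axis, log2 signal minus the array's 75th percentile; 1 array per point, open points not well above background; lines only join the points of a gene). Slc3a2, Slc7a5, Slc7a8, Slc38a3 and Slc38a5 are lowest on duct, whereas Slc6a6 and Slc6a8 are highest there and Slc3a1 is highest on ADM.

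Among the SLC6 genes, Slc6a6 and Slc6a8 were higher in duct than in ADM and acinar. Slc6a6, the taurine transporter, had levels of 1.72 on ADM, 4.07 on duct and 0.43 on acinar. Duct was 12.5-fold above acinar, and ADM was 2.44-fold above acinar and 5.12-fold below duct. Slc6a8, the creatine transporter, read 2.22 on ADM, 3.24 on duct and -0.59 on acinar, so that duct was 14.3-fold and ADM 7.02-fold above acinar. ADM was 2.03-fold below duct for this gene, a difference of -1.02.

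Slc6a9, the glycine transporter GlyT1, went with the acinar-high genes, at 1.89 on ADM, -0.01 on duct and 2.55 on acinar. It was 3.73-fold higher in ADM than in duct and 5.91-fold lower in duct than in acinar. Its second probe gave 1.52 and -2.50 for these differences, close to the 1.90 and -2.56 of the first. Slc6a13, a GABA and taurine carrier, was well above background on ADM only (1.06), at least 8.60-fold above acinar and at least 19.9-fold above duct. Slc6a17, a vesicular carrier of neurons, was well above background on acinar only (-1.83), with ADM at least 2.49-fold and duct at least 2.72-fold below acinar. Slc6a18 was well above background on duct only (-2.56), and its other probe on no array. The noradrenaline transporter Slc6a2 was measured on all 3 arrays and stayed within 2-fold throughout.

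The SLC1 family holds glutamate carriers and the small neutral exchangers ASCT1 and ASCT2. Slc1a4 (ASCT1) had a bright probe, at 8.93 on ADM, 8.45 on duct and 9.19 on acinar, and its differences were all under 2-fold. For Slc1a5 (ASCT2), the glutamine exchanger, the probes disagreed. The brighter one read 0.64 on ADM, 1.12 on duct and 0.54 on acinar, within 2-fold in all comparisons, while the other read -0.52 on ADM, -1.15 on duct and 2.02 on acinar, a difference of -2.55 for ADM and -3.17 for duct against acinar. The direction of Slc1a5 is thus unsettled. The glutamate transporter Slc1a3 was 4.23-fold lower in ADM (-1.70) than in acinar (0.38) and not well above background on duct, where ADM was at least 2.99-fold above duct and duct at least 12.6-fold below acinar. Slc1a7, a glutamate transporter known from retina, was well above background on acinar only (0.89), with ADM at least 16.5-fold and duct at least 18-fold below acinar. Slc1a6 stayed within 2-fold.

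SLC43 and SLC36 genes gave mixed readings. Slc43a2 (LAT4), a carrier of leucine and other large neutral amino acids, was 1.41 on ADM, 1.57 on duct and -1.22 on acinar, so ADM was 6.21-fold and duct 6.94-fold above acinar. Slc7a5 and Slc7a8, which carry some of the same amino acids, were lower than acinar on both. Slc43a3, which carries purine bases, read 1.75 on ADM, 2.91 on duct and 2.32 on acinar, 2.23-fold lower in ADM than in duct. The lysosomal proton-coupled carrier Slc36a1 read -0.23 on ADM, 1.38 on duct and 2.34 on acinar with the brighter probe, and 1.85 on ADM, -0.66 on duct and 1.76 on acinar with the other. For Slc36a4 the probes opposed each other in duct against acinar (1.24, and -2.94 or lower), so no direction is given for either gene. Slc36a2 was well above background on ADM only (-2.19), at least 1.08 log2 units above duct.

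For genes lower in duct, ADM lay between the other arrays about as often as over all genes. Of the 17 transporter genes lower in duct than in acinar, 12 (70.6%) had an ADM level between them, against 70.3% of 3398 genes. The other 5, Slc3a2, Slc7a1, Slc38a1, Slc38a2 and Slc38a7, were at or above the acinar level in ADM. Dim sides were raised here too, for all genes alike, to -3.15 on ADM and -3.28 on duct. A gene dim on both could thus count as between by construction, as Slc1a7 and Slc6a17 did. Of the 7 higher in duct, 5 (71.4%) lay between, against 55.9% of 3791 genes, with Slc3a1 above both. Slc38a4 was counted below both only because its dim acinar side was raised to -2.04. It read -2.80 on ADM and was not well above background on acinar, so the order of these arrays could not be set. These comparisons share arrays, so they are not independent of each other.

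Related genes gave context for the transporters. Over all compared genes, 21.8% were at least 2-fold higher and 22.0% lower in ADM than in acinar, 21.6% and 24.8% in ADM than in duct, and 27.4% and 24.6% in duct than in acinar, and the list counts are to be read beside these. The list for the ATF4 arm of the amino acid response, the program that raises transporter and synthesis genes when amino acids are scarce, had 18 compared genes. Of these, 13 were lower in duct than in acinar, against 24.6% of all genes, and 2 higher (median -1.66). In ADM 11 were higher than in duct and 1 lower (2.09), and 2 were higher and 5 lower than in acinar (-0.58). Asns, asparagine synthetase, had levels of 4.49 on ADM, 1.48 on duct and 5.82 on acinar, and the stress regulator Nupr1 had 8.46 on ADM, 5.01 on duct and 9.81 on acinar. Both followed the order of Slc7a8 and Slc38a3. Sesn2, a leucine sensor of mTORC1, was highest in ADM, at 2.74 on ADM, -1.23 on duct and 0.24 on acinar. The serine synthesis enzyme Psat1, at 0.59 on ADM, -2.08 on duct and 3.91 on acinar, was lower in ADM than in acinar by a difference of -3.32.

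Of 21 genes of amino acid sensing to mTORC1 compared between ADM and acinar, 9 were lower in ADM, against 22.0% of all genes, and 4 higher, against 21.8% (median -0.38), with Rragc, a Rag GTPase, at -2.91, and Lamtor3, a subunit of its lysosomal anchor, at 1.96. Between duct and acinar 7 of 21 were lower and 4 higher (-0.23), and between ADM and duct 5 of 22 were higher and 5 lower (-0.23).

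Carriers of other families and accessory proteins showed few differences between ADM and duct, with 2 of 13 higher and 0 lower (median 0.34). Of 15 compared between ADM and acinar, 2 were higher and 5 lower (0.28), and of 14 between duct and acinar 1 was higher and 5 lower (-0.27). Cltrn, the surface partner of some SLC6 carriers, was 1.21 on ADM, 0.83 on duct and -1.40 on acinar. Slc25a12, a mitochondrial aspartate-glutamate carrier, was higher in ADM than in duct by 2.12. The sodium pump builds the gradient that SLC1, SLC6 and SLC38 carriers use. Its beta subunit Atp1b1 was 3.87 on ADM, 5.29 on duct and 0.22 on acinar. The pump list thus had 3 of 8 genes higher and 1 lower in duct than in acinar (median 0.47), 1 of 8 higher and 4 lower in ADM than in duct (-0.76), and 2 of 7 higher and 1 lower in ADM than in acinar (0.55).

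**Figure D4:**
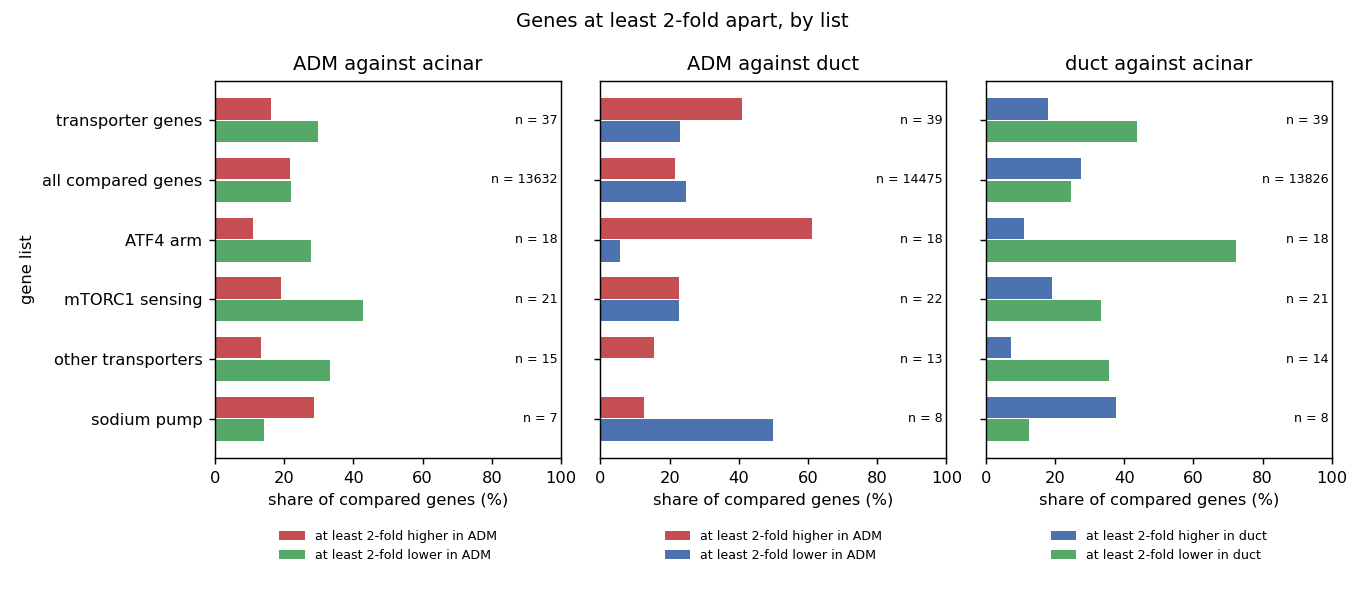
Share of compared genes (x axis, %) at least 2-fold higher or lower in the first-named array, for the transporter genes, all compared genes and the 4 related lists; n is the number of genes compared. Transporter genes lower in duct than in acinar made 43.6%, against 24.6% of all compared genes.

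Promoters of all members on file were searched, in RefSeq windows on GRCm38.p6 from 250 bases before to 50 after each start. Sequences are shown only for acinar-high genes, which shared a direction. Among them, Slc6a17 had an acinar signal of 9.89 intensity units and was not well above background on ADM or duct. With normexp background correction its differences from acinar were -0.56 for ADM and -0.86 for duct, both under 2-fold. The letters were TGATGNAA, the core of the amino acid response element bound by ATF4, and TTTCCCA, the box read by the RBPJL or RBPJ subunit of the acinar PTF1 complex, on both strands. A promoter was on file for 40 members. TGATGNAA was found in 3 of them, Slc1a4, Slc6a21 and Slc7a7, which is 7.5% of members against 4.51% of 27025 genes. TTTCCCA was found in 5, Slc1a4, Slc1a7, Slc6a17, Slc6a19 and Slc38a5, which is 12.5% against 9.16%. These shares of all members lie near the background, and a match is a description of letters only. In all, 9 members were at least 2-fold lower in both ADM and duct than in acinar, and 6 of them had a promoter on file. The 3 of these with the box are shown 5' to 3' on the strand of the gene, upstream bases only, with the box, or its complement in Slc6a17, in capitals. They lie at chrX:8271131-8271256 (+) for Slc38a5, chr4:107968303-107968405 (+) for Slc1a7 and chr3:107500870-107500990 (-) for Slc6a17.
Slc38a5: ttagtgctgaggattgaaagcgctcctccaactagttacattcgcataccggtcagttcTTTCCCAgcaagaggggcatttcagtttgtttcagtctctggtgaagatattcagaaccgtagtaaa
Slc1a7: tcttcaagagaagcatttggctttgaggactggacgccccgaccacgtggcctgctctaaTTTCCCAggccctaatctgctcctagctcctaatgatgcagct
Slc6a17: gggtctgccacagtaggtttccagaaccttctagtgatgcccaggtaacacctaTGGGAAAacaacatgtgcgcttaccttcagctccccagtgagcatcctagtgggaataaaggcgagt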

How the data were processed

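The authors deposited scanner tables that hold linear intensities per spot. They were made with Agilent Feature Extraction 11.5.1.1, which, per the file headers, removed background and spatial trends within an array and set the flags used here. RNA (1.181 ng) was amplified and 2.0 µg of cDNA labelled with Cy3, per the labels' protocols. The deposited value table holds log2 values of 32939 probes, which differed from the log2 processed signal by a constant per array (-6.17 for ADM, -6.58 for duct, -5.13 for acinar) to within 0.001 in 32905 probes. Its medians were -0.56, -0.63 and -0.57, so the table keeps the direction of the signals and has no centring by gene.

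From each array of 62976 spots, 3671 controls and 117 (ADM), 110 (duct) and 115 (acinar) outlier spots were left out. Spots were averaged on the log2 scale and the 75th percentile over 55664 probes was subtracted. Well above background were 27676 probes on ADM, 27849 on duct and 22654 on acinar. RefSeq accessions without versions named 28020 probes through a gene table of GRCm38.p6, used for names and promoters only, since probes were annotated on mm9. The probe with the highest mean stood for a gene. A gene was compared where well above background on at least 1 of 2 arrays. A dim side was raised, where lower, to the dimmest level that still counted as well above background on its array (-3.15 on ADM, -3.28 on duct, -2.04 on acinar), and a limit that crossed 0 was given as 0. Normexp correction of spot medians over local background medians used limma 3.58.1 with an offset of 50. Other settings were scaling by the array median or by the percentile over detected probes, the mean of a gene's probes, a second probe, detection on all 3 arrays, no filter, and the deposited value table. The functions were tested on simulated data. The members, lists and rules were chosen with earlier results of these data known. All members enter the counts, and a few single genes are not reported here. Of related lists, a few genes were named from the 6 with the largest differences among those well above background on both arrays of a comparison, so larger limits may go unnamed. Defining markers of cell types could be named too. A planned comparison of protein sequences was not made, since no protein table was used here.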

Additional observations from a re-analysis of the deposited data

How the results depend on the processing

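With 1 array per group nothing could be left out and no paired analysis was possible because the labels give no replicate numbers. Of the summary values, 77 stayed close to the reported one (counts within 1.5 times, medians within the spot error) and 28 moved, all of which follow.

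With normexp, transporter genes at least 2-fold lower in ADM numbered 7 against acinar (11 as reported) and 4 against duct (9), and those higher in duct than in acinar 4 (7). Over all genes, 1707 were higher and 942 lower in ADM than in acinar, 1503 higher and 2176 lower in ADM than in duct, and 1501 lower in duct than in acinar. Transporter medians became 0.27 (ADM against duct) and -0.44 (duct against acinar). Median scaling gave 0.32 and -0.33 for the same medians. The mean of a gene's probes gave -0.25 for ADM against acinar and -1.15 for duct against acinar. With only genes well above background on all 3 arrays, fewer genes were compared, and transporter counts were 10 higher and 5 lower in ADM than in duct, 6 lower in ADM than in acinar and 11 lower in duct than in acinar. All-gene counts were then 1688 higher in ADM than in acinar, 1717 higher and 2055 lower in ADM than in duct, and 2298 higher in duct than in acinar. With no filter and no floor, 26 transporter genes were lower in ADM and 34 in duct than in acinar (medians -0.67 and -1.23), and 7969 and 8829 of all 21150 genes, since dim probes then enter at their own signal.

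Of single-gene differences across the settings, 534 stayed within the spot error, 267 moved and 5 past 2-fold as reported changed sign, all SLC36. Slc36a1 became 0.09 (ADM against acinar) and 2.51 (ADM against duct) with the second probe and 0.45 with the mean of probes. Slc36a4 became -2.94 and -1.59 for duct against acinar under the same settings. Among differences under 2-fold as reported, the second probe also changed the sign of Slc1a5, to -2.55 in ADM and -3.17 in duct against acinar and 0.63 in ADM against duct, and of Slc36a4 in ADM against duct (3.16). The cause was not tested. The dim acinar array limits what could be measured there.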
